A study of Mus musculus with 2 samples.

Results

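Resting Malat1-rich microglia were chosen by measured counts. Barcodes qualified with 200 genes or more and no more than 10% of their unique molecular identifiers (UMIs) from mitochondrial genes, and 6 further criteria selected on gene expression. P2ry12, Gpr34, Tmem119, Siglech, Fcrls and Olfml3 together held at least 0.5% of the cell's UMIs, and S100a8 and S100a9 held under 1%. Malat1 held at least 0.5%, Fos had fewer than 2 UMIs, fewer than 3 of 7 interferon response genes (Ifit1, Ifit2, Ifit3, Isg15, Rsad2, Usp18 and Ifi44) were detected, and fewer than 2 of 5 disease-associated genes (Cst7, Lpl, Spp1, Itgax and Gpnmb) were detected. The criteria selected 6972 of 14849 cells, of which 5359 of 7032 came from the Disc1 WT/WT library and 1613 of 7817 from the Disc1 LI/LI library.

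The cells came from 23-week-old male littermates, 6 Disc1 WT/WT and 6 Disc1 LI/LI mice, whose brains were combined within each genotype to give 1 library per genotype. In LI/LI mice both Disc1 copies are impaired (LI, locus impairment), in the whole animal and not in microglia alone. Actinomycin D, an inhibitor of transcription, was present during dissociation of both pools (Act-Seq), and CD45-low, CD11b-positive cells were sorted for droplet sequencing. The WT/WT library held 7038 barcodes and 33601957 UMIs, the LI/LI library 7834 barcodes and 47731571 UMIs, and 12 barcodes occurred in both, 3 of them among the selected cells. With 1 library per genotype no test between genotypes was possible. Unless said otherwise, an interval below is a 95% interval for counting error only. The spread between mice cannot be seen.

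Microglia are the resident macrophages of the brain. They scan their surroundings with fine processes and extend these toward sources of ATP and ADP, such as an injury, through the receptor P2RY12. They depend on signals through CSF1R and TGF-β to stay alive and to keep their identity. Malat1 is a long noncoding RNA that stays in the nucleus, so its share of a cell's UMIs follows nuclear RNA as well as expression.

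A selected cell held a median of 4307 UMIs and 1978 genes in WT/WT, and of 3850 UMIs and 1722 genes in LI/LI. After every cell was thinned to 1000 UMIs, the median was 665 genes (664 to 666) in WT/WT and 626 (624 to 629) in LI/LI, with 98 and 10 cells too shallow to be thinned. The 6 markers together held a median of 1.21% of UMIs in WT/WT and 1.12% in LI/LI, and all 6 were detected in 89.1% and 87.4% of the cells. Malat1 held a median of 3.08% in WT/WT, with 5% of cells under 1.80% and 5% above 5.30%. In LI/LI its median was 3.11%, with 5% of cells under 1.29% and 5% above 5.74%. Malat1 share, which was part of the selection, was thus alike in both libraries at the median and wider in LI/LI.

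The 2 cuts on shares met different distributions. Malat1 had few cells near its cut of 0.5%. Of the cells that met all other criteria, 8 in WT/WT and 9 in LI/LI lay between 0.5% and 0.75%, from 0.503% and 0.501% upward, and 7 and 8 lay between 0.25% and 0.5%, up to 0.4997% and 0.474%. The other 426 and 153 cells without enough Malat1 lay under 0.25%. The marker sum had no such gap, with 332 WT/WT and 165 LI/LI cells between 0.5% and 0.75% and 106 and 76 cells between 0.25% and 0.5%. The highest sums outside were 0.496% and 0.4999%, and the lowest inside were 0.5002% in both libraries.

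**Figure D1:**
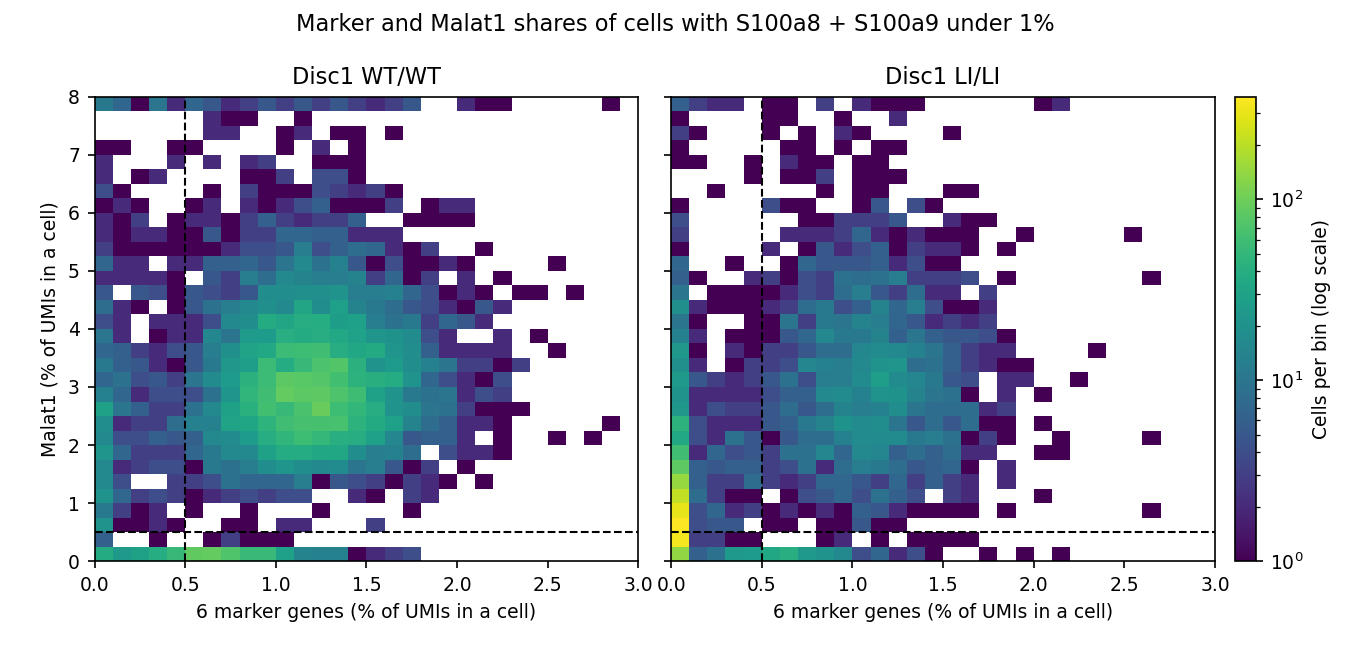
Share of UMIs in the 6 marker genes (x axis, %) against the share in Malat1 (y axis, %) for cells with under 1% of UMIs from S100a8 and S100a9, as the number of cells per bin on a log color scale, in WT/WT (left) and LI/LI (right). Dashed lines mark the cuts at 0.5%, cells above 8% Malat1 are drawn in the top row of bins, and the selected cells form the large upper right cloud, centered near 1.21% and 3.08% in WT/WT and near 1.12% and 3.11% in LI/LI.

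Of the cells that passed both the marker and the S100a8 and S100a9 criteria, the selected cells made up 86.7% (85.8 to 87.6) of 6180 in WT/WT and 82.7% (81.0 to 84.4) of 1950 in LI/LI. Their share of all cells was 76.2% (75.2 to 77.2) in WT/WT and 20.6% (19.7 to 21.5) in LI/LI, beside 107 and 3607 cells with at least 1% of UMIs from the neutrophil genes S100a8 and S100a9 and a marker sum under 0.5%. Cells that failed through Malat1 alone were 7.01% (6.38 to 7.67) of the 6180 and 8.26% (7.07 to 9.57) of the 1950. Cells that failed through Fos alone were 4.51% (4.01 to 5.06) and 7.64% (6.50 to 8.91). Only 36 and 13 cells failed through interferon genes alone, and 46 and 8 through disease-associated genes alone. Among the selected cells, 274 of 5359 in WT/WT (5.11%) and 214 of 1613 in LI/LI (13.3%) held the 1 UMI of Fos that the criteria allow. Fos was detected in 92.5% of the S100a8/S100a9-high cells of WT/WT and 97.2% of those of LI/LI, of which LI/LI had the larger number, and the part of free RNA from such cells in the Fos values of the selected cells was not tested.

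Marker genes of other cell types were detected, and the sums of several sets differed between the libraries. Some sums came mostly from 1 gene, such as Csf3r in WT/WT and Slc1a3 in both libraries. A marker gene alone does not show which cells its RNA came from, and this was not tested. S100a9 stood at 14.1 CPM in WT/WT and 375 CPM in LI/LI (CPM, the number of a gene's UMIs in the summed cells scaled to a common total), with a UMI in 6.42% and 77.6% of selected cells. The S100a8/S100a9-high cells held 148091 and 165884 CPM at median depths of 4235 and 4128 UMIs, so the selected cells were at 0.00954% and 0.226% of that level. The 12 neutrophil markers, S100a8 and S100a9 of the selection among them, summed to 187 CPM in WT/WT and 1429 CPM in LI/LI, none was at 0, and Csf3r, the G-CSF receptor, was the exception to the direction at 145 CPM in WT/WT and 124 CPM in LI/LI. The 10 B and plasma cell markers summed to 249 and 489 CPM, with Ighm the most abundant. The 10 monocyte markers summed to 25.3 and 181 CPM, led by F13a1 in WT/WT and by Plac8 in LI/LI. F13a1 is also among the border macrophage markers below. In WT/WT 193 of its UMIs lay in the 243 selected cells with at least 10 UMIs of Apoe, and 30 in the other 5116. The 6 progenitor markers summed to 136 and 257 CPM, led by Cd34. All 5 progenitor markers with at least 10 UMIs were higher in LI/LI, with a median log2 ratio of LI/LI over WT/WT of 6.36. Markers of other brain cells were mostly at or near 0. The 7 neuron markers summed to 1.65 and 1.47 CPM, and 2 and 3 of them were at 0. The 7 astrocyte markers summed to 291 and 261 CPM, nearly all from the glutamate transporter gene Slc1a3 (289 CPM in WT/WT and 259.8 CPM in LI/LI), while 1 and 4 of them were at 0. The 10 border macrophage markers summed to 260.1 and 197 CPM, led by the scavenger receptor gene Stab1. Of these 10, 9 were lower in LI/LI, with a median log2 ratio of LI/LI over WT/WT of -1.27. The remaining sets were low in both libraries. They were 10 T and NK cell markers at 19.5 and 41.3 CPM, 8 cycling markers at 36.9 and 72.5 CPM, 6 oligodendrocyte markers at 47.6 and 45.1 CPM, 6 endothelial markers at 31.7 and 19.5 CPM, 7 erythroid markers at 3.06 and 19.3 CPM, and 7 dendritic cell markers at 5.93 and 7.47 CPM. The part of RNA from other cells in the ratios between genotypes was not tested.

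Disc1 itself had 542 UMIs in the selected WT/WT cells and 15 in the LI/LI cells. That is 21.3 CPM (19.5 to 23.1) against 2.2 CPM (1.23 to 3.62), a log2 ratio of LI/LI over WT/WT of -3.28 (-4.12 to -2.54, from the Clopper-Pearson interval of the share of UMIs). A Disc1 UMI was found in 9.46% and 0.93% of the cells, and the S100a8/S100a9-high cells of LI/LI held 0.0924 CPM. The lower value went with the label of the LI/LI library. The UMIs are 3′ tags, and where they lie relative to the impaired part of the locus is not given in the sources used here.

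The 6 markers that defined the cells belong to the microglia surface and secretome. P2ry12, the ADP receptor of process movement, stood at 4127 CPM in WT/WT and 3249.8 CPM in LI/LI (log2 ratio -0.34). Gpr34, a receptor for lysophosphatidylserine, stood at 2603 CPM in WT/WT and 1995 CPM in LI/LI (-0.38). Tmem119, a membrane protein of microglia, stood at 1144 CPM in WT/WT and 1331 CPM in LI/LI (0.22). Levels in CPM were compared without division by gene length, since each UMI marks a 3′ end. Fcrls, an Fc receptor-like protein, was at 1763 CPM in WT/WT and 1823 CPM in LI/LI (0.048), the secreted protein gene Olfml3 at 1596 CPM in WT/WT and 1856 CPM in LI/LI (0.22), and the lectin gene Siglech at 946 CPM in WT/WT and 895 CPM in LI/LI (-0.08, and 0.055 with TMM scaling, which sets the bulk of genes even between libraries). P2ry12 and Gpr34 had the lower values in LI/LI and Tmem119 and Olfml3 the higher ones, while Fcrls and Siglech were close to even. As part of the selection these levels are a description.

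RefSeq promoter windows (GRCm38.p6, 250 bases before to 50 after the start) were given for 4 of these 6 markers, P2ry12, Siglech, Fcrls and Olfml3. They were searched on both strands for AGGAAGT, letters that hold the core of sites bound by ETS factors such as PU.1, the myeloid factor encoded by Spi1. The letters were chosen after the levels were known. They occurred in 2 of the 4, P2ry12 at chr3:59262986-59263097 and Fcrls at chr3:87263533-87263659, both on the minus strand, and in 3072 of 32851 windows overall (9.35%). The stretches before the start that hold them are shown 5′ to 3′ on the gene's strand, with the match in capitals (in Fcrls as its reverse complement).
P2ry12: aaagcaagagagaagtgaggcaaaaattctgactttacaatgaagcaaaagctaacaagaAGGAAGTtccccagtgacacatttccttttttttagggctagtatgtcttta
Fcrls: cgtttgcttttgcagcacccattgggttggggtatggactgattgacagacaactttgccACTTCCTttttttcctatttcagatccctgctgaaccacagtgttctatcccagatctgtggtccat
The match begins 52 bases before the start of P2ry12 and 75 bases before that of Fcrls, and it describes these letters only.

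Microglia identity genes that the criteria did not read were abundant in both libraries. Cst3, which encodes the protease inhibitor cystatin C, was the most abundant gene of all at 65967 CPM in WT/WT and 83329.9 CPM in LI/LI. Sparc, which encodes a matrix-binding glycoprotein, stood at 3959 CPM in WT/WT and 4679 CPM in LI/LI, and the fractalkine receptor gene Cx3cr1 at 3441 CPM in WT/WT and 2939 CPM in LI/LI. Over the 17 such genes in the files, the median log2 ratio of LI/LI over WT/WT was 0.0025 (0.14 with TMM scaling). Of these genes 9 were higher and 8 lower (11 and 6 with TMM scaling). The medians of the lower and upper bounds of the single genes were -0.011 and 0.016, which is not an interval for the list. The extremes were Cd164, a sialomucin, at 594 CPM in WT/WT and 405 CPM in LI/LI (log2 ratio -0.55) and Ltc4s, the leukotriene C4 synthase, at 752 CPM in WT/WT and 1053 CPM in LI/LI (0.49). P2ry13 (-0.52), the zinc finger factor gene Sall1 (-0.48) and Golm1 (-0.43) were also lower in LI/LI, and the fructose transporter gene Slc2a5 (0.31) was higher. None of the 17 differed by 1.5-fold, and Ltc4s did with TMM scaling. In S100a8/S100a9-high cells the summed level of the 17 was 11798 and 3919 CPM, against 103202 and 120291 CPM in the selected cells and 145380 and 173492 CPM in cells that failed through Malat1 alone, with Cst3 the larger part of the sum. As the S100a8/S100a9-high cells were chosen for a low marker sum, their low level is a description. All 17 reached 50 CPM in the selected cells, so the label of microglia did not go against these genes.

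**Figure D2:**
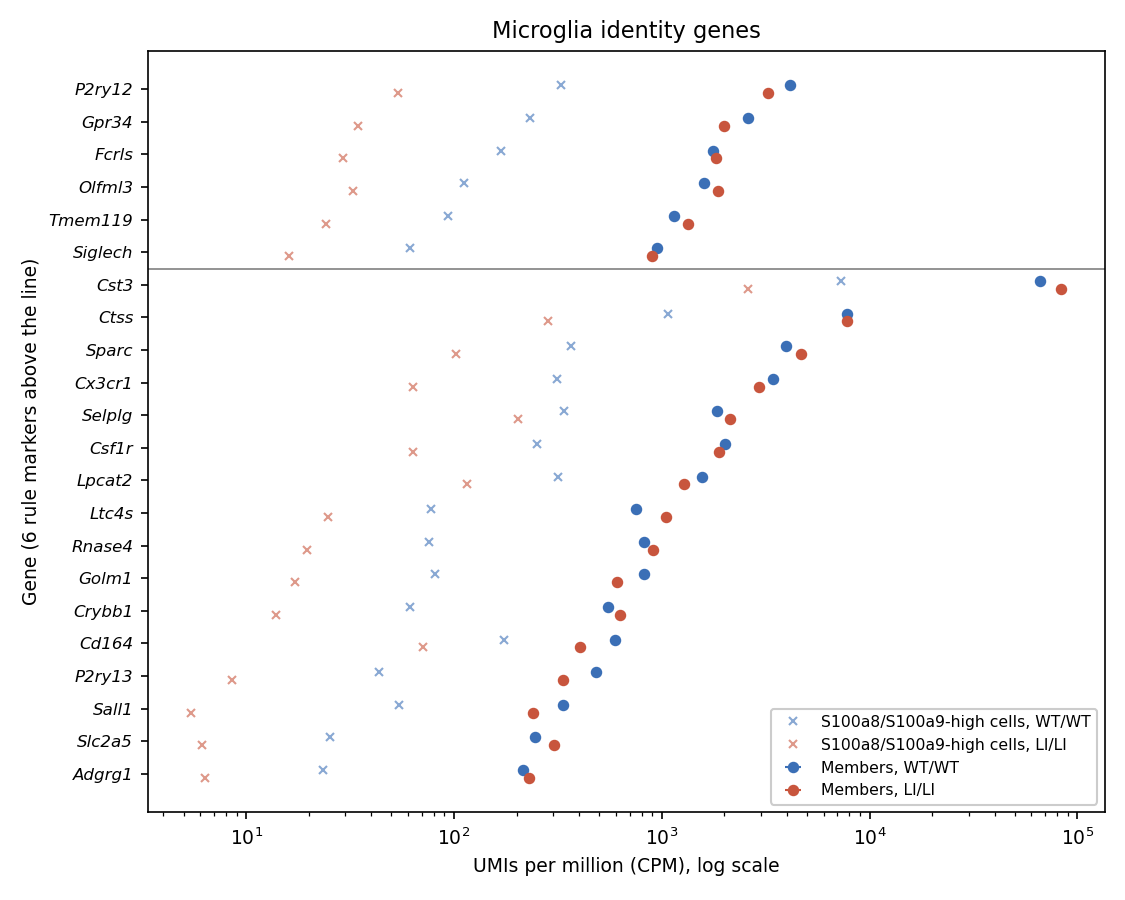
Level of 22 microglia identity genes in CPM (x axis, log scale) in the selected cells (circles, with 95% counting intervals that are mostly smaller than the symbols) and in S100a8/S100a9-high cells (crosses), for WT/WT (blue) and LI/LI (red). The 6 genes above the line were part of the selection. The circles lie to the right of the crosses, and those of both libraries lie close together, as for Cx3cr1 at 3441 and 2939 CPM.

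The comparison of LI/LI with WT/WT asked which transcripts differ within the same kind of cell when Disc1 is impaired. Chips and kits of more than 1 kind were used in the study, which library had which is not given in the sources used here, and a difference of this kind cannot be told apart from genotype in any ratio below. Of the 3599 genes that reached 50 CPM in either library, 38 were at least 1.5-fold higher in LI/LI (1.06%) and 447 were at least 1.5-fold lower (12.4%). With TMM scaling, which moves every log2 ratio by 0.13, the counts were 87 higher and 209 lower, so that 29.4% and not 7.84% of the genes past the threshold were higher. Among genes of at least 100 CPM in either library, those of highest ratio were genes of neutrophil granules and secretions. Lcn2, which encodes an iron-binding lipocalin, stood at 2.59 CPM in WT/WT and 118 CPM in LI/LI, Retnlg at 3.73 CPM in WT/WT and 169 CPM in LI/LI, and the granule protein genes Ngp and Camp had log2 ratios of 5.44 and 5.37. In LI/LI the selected cells held 0.92% of the Lcn2 level of S100a8/S100a9-high cells, 0.747% of the Retnlg level and 0.447% of the Ngp level. Igkc, the immunoglobulin kappa constant region, stood at 10 CPM in WT/WT and 150.2 CPM in LI/LI with a UMI in 0.448% and 23.1% of cells, and S100a11 at 10.7 CPM in WT/WT and 114 CPM in LI/LI. The log2 ratio of Igkc was 3.90, and 5.01 with the 6 markers at 1% or more. Their part as free RNA was not tested. Among 3053 genes that were not lower in the selected cells than in the S100a8/S100a9-high cells of either library, a restriction chosen after the values were seen, 14 were at least 1.5-fold higher (0.459%) and 404 lower (13.2%).

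Among those 14, which are named here after their values were seen, were 4 genes of antigen presentation (Cd74, H2-Aa, H2-Ab1 and H2-Eb1), the chemokine genes Ccl3 and Ccl4, and the heat shock genes Hspa1a and Hspa1b, with Igkc, Cd79b, Tsc22d3, Rnaset2a and Mt1. Cd74, the invariant chain of MHC class II, stood at 144 CPM in WT/WT and 388 CPM in LI/LI (log2 ratio 1.43, 1.36 to 1.51, and 0.82 with the 6 markers at 1% or more), but a UMI of it was found in only 12.6% and 18.4% of cells. Ccl4 stood at 87.7 CPM in WT/WT and 226 CPM in LI/LI (1.36, 1.27 to 1.46) with a UMI in 8.81% and 12% of cells. All 7 genes of the MHC class II list were higher in LI/LI with 0.5 added to each count, as in every list count here, but the class II activator gene Ciita had only 8 and 2 UMIs and was slightly lower in CPM. The list had a median log2 ratio of 0.92, and 4 of the 6 with at least 50 CPM passed 1.5-fold, against 1.06% of all genes. The B and plasma cell markers moved with it, all 10 of them higher in LI/LI with a median log2 ratio of 3.54, and in the 33 LI/LI cells with at least 10 UMIs of Cd74 the B cell gene Cd79a stood at 961 CPM against 8.35 CPM in the other selected cells. Their part in the MHC class II ratio was not tested. When cells with at least 10 UMIs of Apoe, Cd74 or Ccl4 were left out, an alternative added after the data were seen, that median was 0.26. As Cd74 is in the list and helped choose the cells left out, a lower median was built into that step.

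Among genes of at least 100 CPM in either library, mt-Nd5, a mitochondrial subunit of complex I, had the lowest ratio. It stood at 427 CPM in WT/WT and 181 CPM in LI/LI (-1.24). Next was the linker histone gene Hist1h1e at 128 CPM in WT/WT and 56.3 CPM in LI/LI (-1.19). Erbin, which encodes a scaffold protein, followed at 176 CPM in WT/WT and 80.1 CPM in LI/LI (-1.13) and the adaptor subunit gene Ap1g1 at 103 CPM in WT/WT and 47.6 CPM in LI/LI (-1.11). Gm37494, Fchsd2, Adnp, the sodium-calcium exchanger gene Slc8a1, the deubiquitinase gene Usp24 and the zinc transporter gene Slc39a10 had log2 ratios from -1.01 to -0.97. All 8 of these genes from Erbin on span more than 24171 bases in the annotation (GENCODE M21, mm10). Gene length moved with the ratio throughout. The genes were divided by length into 4 groups of equal size. In the shortest, up to 9260 bases, the median log2 ratio was 0.20 and 13 of 900 genes were at least 1.5-fold lower. In the longest, from 57098 bases, the median was -0.46 and 269 of 900 genes were at least 1.5-fold lower. Over 3598 genes, the Spearman rank correlation between length and log2 ratio was -0.65, as a description across genes, which share both libraries and are not replicates. The part of length in the list values below was not tested.

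**Figure D3:**
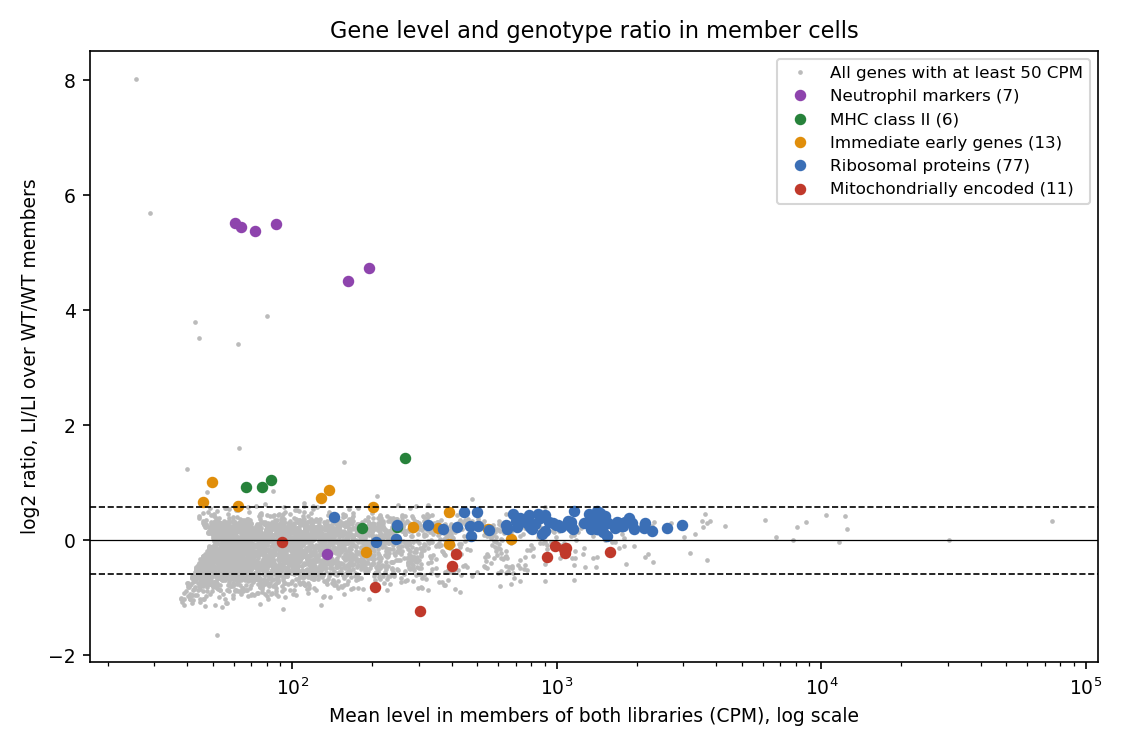
Log2 ratio of LI/LI over WT/WT in the selected cells (y axis) against the mean level of both libraries in CPM (x axis, log scale) for the 3599 genes that reached 50 CPM in either library, with 5 gene lists in color. Dashed lines mark a 1.5-fold difference. Neutrophil markers other than Csf3r lie above 4 and ribosomal protein genes lie just above 0. The 11 mitochondrially encoded genes drawn lie below 0, where 3 of them would not with TMM scaling.

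Purine signaling and growth factor lists lay mostly on the lower side in LI/LI in CPM, as did all genes together. Of all 12940 genes with at least 10 UMIs, 8213 were lower in CPM. Their median log2 ratio was -0.17 (-0.032 with TMM scaling). This is the level to read the lists against. Of 8 purine receptor and nucleotidase genes with enough UMIs, P2ry12 left out as part of the selection, 7 were lower (4 with TMM scaling, median -0.24), among them the ectonucleotidase gene Entpd1 at 772 CPM in WT/WT and 536 CPM in LI/LI and the ATP-gated channel gene P2rx7 at 92.1 CPM in WT/WT and 66.2 CPM in LI/LI. The UDP receptor gene P2ry6 stood at 370.3 CPM in WT/WT and 346 CPM in LI/LI, a difference whose sign turned with TMM scaling. None passed 1.5-fold. Of 14 TGF-β genes 11 were lower (10 with TMM scaling, median -0.39) and 4 of 12 with at least 50 CPM passed 1.5-fold downward, against a background of 12.4%. With TMM scaling 1 of the 12 passed, Smad2, against 209 of 3599 genes. The 4 were the receptor gene Tgfbr2 at 279 CPM in WT/WT and 176 CPM in LI/LI, the signal transducers Smad2 and Smad4 (log2 ratios -0.84 and -0.68) and the repressor gene Skil at 393 CPM in WT/WT and 247 CPM in LI/LI. Tgfbr1, the partner receptor, stood at 1483 CPM in WT/WT and 1071 CPM in LI/LI, and Nrros, which holds latent TGF-β on microglia, at 99.9 CPM in WT/WT and 124 CPM in LI/LI, so the list was not of 1 direction.

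Of 20 lineage transcription factors 15 were lower in LI/LI (11 with TMM scaling, median -0.16), near the median of all genes, and 1 of 17 passed 1.5-fold, downward, against 12.4% of all genes (209 of 3599 with TMM scaling). This was Mef2a, a MADS box factor, at 1115 CPM in WT/WT and 684 CPM in LI/LI (-0.71). With TMM scaling it no longer passed and Cebpb did, upward. Spi1 stood at 477 CPM in WT/WT and 491 CPM in LI/LI and Irf8 at 399 CPM in WT/WT and 378 CPM in LI/LI. Cebpb, a factor of inflammatory and myeloid genes, stood at 410.0 CPM in WT/WT and 582 CPM in LI/LI (0.51), beside 2379.6 CPM in the S100a8/S100a9-high cells of LI/LI. Spi1 and Irf8 therefore differed little between the libraries.

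Complement and lysosomal genes lay on the higher side by their medians. The 3 chains of C1q, the starter of the classical complement cascade, were all higher in LI/LI. C1qa stood at 10452 CPM in WT/WT and 14038 CPM in LI/LI (0.43, 0.41 to 0.44), C1qb at 8883 CPM in WT/WT and 12001 CPM in LI/LI (0.43) and C1qc at 7755 CPM in WT/WT and 9708 CPM in LI/LI (0.32). The receptor gene Itgam, the CD11b of the sort, stood at 765 CPM in WT/WT and 516 CPM in LI/LI (-0.57) and C5ar1 at 116 CPM in WT/WT and 157 CPM in LI/LI (0.43). The complement list as a whole had a median of 0.26 (0.39 with TMM scaling), with 10 higher and 6 lower. It holds Itgax, which the selection read. None of the 10 complement genes with at least 50 CPM passed 1.5-fold upward and 1 passed it downward, under both scalings, against 1.06% and 12.4% of all genes, and the median of these 10 was 0.15. The 23 lysosomal genes had a median of 0.057 with 14 higher (18 with TMM scaling), from the protease gene Ctsd at 5359.9 CPM in WT/WT and 6875 CPM in LI/LI to the membrane protein gene Lamp1 at 1631 CPM in WT/WT and 1185 CPM in LI/LI, and none passed 1.5-fold. Trem2, a lipid receptor, stood at 2405 CPM in WT/WT and 2974 CPM in LI/LI and its adaptor gene Tyrobp at 3068 CPM in WT/WT and 4209.8 CPM in LI/LI, with Csf1r at 2016 CPM in WT/WT and 1882 CPM in LI/LI (a sign that turned with TMM scaling) and Apoe at 591 CPM in WT/WT and 499.7 CPM in LI/LI. The 12 genes of TREM2 and CSF1R signaling had a median of -0.17 and none passed 1.5-fold (1 with TMM scaling, Tyrobp).

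Engulfment genes were lower in 16 of 18 cases (13 with TMM scaling, median -0.45), and 2 of 12 passed 1.5-fold downward (1 with TMM scaling, Elmo1). These were Elmo1, which activates Rac after uptake signals, at 460.1 CPM in WT/WT and 277 CPM in LI/LI (-0.73) and its partner gene Dock2 at 209.7 CPM in WT/WT and 139.6 CPM in LI/LI (-0.59). Mertk, a receptor for apoptotic cells, stood at 406 CPM in WT/WT and 292 CPM in LI/LI, and the integrin gene Itgb5 at 763 CPM in WT/WT and 848 CPM in LI/LI. Both genes past the threshold are long, and 12.4% of all genes passed it in this direction. Border macrophage markers were also lower in 9 of 10 cases (8 with TMM scaling), and their part in the engulfment values was not tested.

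Actin regulators were examined because DISC1 was studied for its part in the microglial cytoskeleton. The 9 subunit genes of ARP2/3, the starter of branched actin filaments, had a median log2 ratio of 0.12 (0.25 with TMM scaling). Of these genes 5 were higher and 4 lower (7 and 2 with TMM scaling), and none passed 1.5-fold. The medians of the lower and upper bounds of the single genes were 0.040 and 0.20, which is not an interval for the list. Actr2, which encodes ARP2, stood at 473 CPM in WT/WT and 321 CPM in LI/LI (-0.56), Actr3, which encodes ARP3, at 307 CPM in WT/WT and 268 CPM in LI/LI (-0.20), and Arpc3 at 379 CPM in WT/WT and 475 CPM in LI/LI (0.33). The subunits thus did not move together. In S100a8/S100a9-high cells of LI/LI the subunits summed to 5051 CPM, against 2946 CPM in the selected cells of LI/LI and 2939 CPM in those of WT/WT. Of 9 WAVE complex genes 7 were lower (5 with TMM scaling, median -0.25), with Cyfip1 at 869 CPM in WT/WT and 644 CPM in LI/LI. Abi1, at 134 CPM in WT/WT and 87.9 CPM in LI/LI, was the 1 of 6 with at least 50 CPM to pass 1.5-fold. It passed downward, against 12.4% of all genes, and not with TMM scaling. Of 9 formins, which build unbranched filaments, 7 were lower under both scalings (median -0.44), and Diaph2 at 197 CPM in WT/WT and 112 CPM in LI/LI (-0.81) and Fmnl3 at 92.7 CPM in WT/WT and 48.3 CPM in LI/LI (-0.94) passed 1.5-fold among the 3 with at least 50 CPM, under both scalings, against 12.4% of all genes (209 of 3599 with TMM scaling). Actb, the cytoskeletal actin gene, was among the 10 most abundant genes at 7443 CPM in WT/WT and 8750.4 CPM in LI/LI, and the actin-binding Tmsb4x at 11597 CPM in WT/WT and 13349 CPM in LI/LI.

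Immediate early and stress genes that the criteria did not read were higher in LI/LI in 18 of 22 cases (median 0.49), and 5 of 13 passed 1.5-fold, against 1.06% of all genes. The 5 were Dusp1, a phosphatase of MAP kinases, at 33 CPM in WT/WT and 66.4 CPM in LI/LI, Ier2 at 35.7 CPM in WT/WT and 56.4 CPM in LI/LI, Klf2 at 49.5 CPM in WT/WT and 75 CPM in LI/LI, Hspa1a at 97.3 CPM in WT/WT and 179 CPM in LI/LI and Hspa1b at 96.1 CPM in WT/WT and 161 CPM in LI/LI. Dusp1, Ier2 and Klf2 stood at 1114, 408 and 275 CPM in the S100a8/S100a9-high cells of LI/LI, above the selected cells. Hspa1a and Hspa1b stood there at 14.6 and 15.1 CPM, below the selected cells. Jun, the most abundant of the list, stood at 669 CPM in WT/WT and 676 CPM in LI/LI and did not separate the libraries (0.014). Of 20 inflammatory genes 12 were lower (median -0.16). Of 13 with at least 50 CPM, Ccl3 and Ccl4 passed 1.5-fold upward. The endotoxin receptor gene Tlr4 (83.3 CPM in WT/WT and 54.8 CPM in LI/LI) passed it downward. With TMM scaling 3 passed upward and none downward. The shares of all genes in CPM were 1.06% upward and 12.4% downward. Il1b stood at 5.46 CPM in WT/WT and 31.8 CPM in LI/LI, with 1365 CPM in the S100a8/S100a9-high cells of LI/LI. Of 18 disease-associated genes outside the criteria 14 were higher (median 0.31). Of 13 with at least 50 CPM 2 passed 1.5-fold upward (3 with TMM scaling), against 1.06% of all genes (87 of 3599 with TMM scaling). The 2 were Lyz2 at 359 CPM in WT/WT and 592 CPM in LI/LI and Cd52 at 257 CPM in WT/WT and 396 CPM in LI/LI. In the S100a8/S100a9-high cells of LI/LI these 2 stood at 9532 and 2619 CPM. Of 16 interferon genes outside the criteria 11 were higher (median 0.14), and of the 4 with at least 50 CPM 1 passed 1.5-fold upward and 1 downward, under both scalings, against 1.06% and 12.4% of all genes. The higher was Ifitm3 at 31 CPM in WT/WT and 94.6 CPM in LI/LI, beside 1225 CPM in the S100a8/S100a9-high cells of LI/LI. The genes that the criteria did read were low by construction, with the 5 disease-associated genes summing to 19.2 and 22.4 CPM, Gpnmb at 0 in both libraries, and the 7 interferon genes to 18.5 and 19.3 CPM.

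Mitochondrially encoded and ribosomal protein genes were examined as groups. All 13 mitochondrially encoded genes were lower in LI/LI, and 10 with TMM scaling (median -0.23, -0.095 with TMM scaling), and 2 of 11 passed 1.5-fold under both scalings, against 12.4% of all genes, mt-Nd5 and mt-Nd4l (261 CPM in WT/WT and 148 CPM in LI/LI), which overlaps mt-Nd4 in the annotation so that its UMIs may be shared. Their share of UMIs was 0.825% at the median WT/WT cell and 0.662% at the median LI/LI cell. Of 78 ribosomal protein genes 77 were higher (median 0.28, 0.41 with TMM scaling) and none passed 1.5-fold. The Y-linked Ddx3y stood at 99.9 CPM in WT/WT and 77.5 CPM in LI/LI and Xist had 1 and 2 UMIs, as the label of male mice has it. Of 10 long noncoding RNAs with enough UMIs 8 were lower (5 with TMM scaling, median -0.16). Of 4 with at least 50 CPM 1 passed 1.5-fold downward, against 12.4% of all genes, and none with TMM scaling. It was Kcnq1ot1, the antisense transcript of the Kcnq1 locus, at 115 CPM in WT/WT and 74.9 CPM in LI/LI.

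The selected cells were set beside the cells that failed through Malat1 alone. Malat1 chose both sets, so the contrast is a description of how the rest of the transcriptome went with it. These cells held a median of 2681 UMIs in WT/WT and 2370 in LI/LI, with 558 and 527 genes at 1000 UMIs and 1.98% and 1.61% mitochondrial UMIs. Of 3055 genes with at least 50 CPM in either set of both libraries, 920 were at least 1.5-fold higher in the Malat1-rich cells of both libraries (30.1%) and 129 lower (4.22%). In WT/WT alone 1076 were higher (35.2%) and 249 lower (8.15%), and in LI/LI alone 1182 were higher (38.7%) and 163 lower (5.34%). TMM scaling, which moves the log2 ratios by -0.50 and -0.44, changed this to 420 higher and 564 lower, so that 42.7% and not 87.7% of these genes were higher. The counts below are therefore given under both scalings, and single ratios in CPM.

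The largest excess in Malat1-rich cells was read among genes of at least 100 CPM. After Malat1 itself (log2 ratios 6.99 in WT/WT and 6.36 in LI/LI), it was in 4632427E13Rik (5.86 and 4.93), Dleu2 (3.79 and 4.14), a host transcript of microRNAs, Ogt (3.91 and 3.57), which adds N-acetylglucosamine to nuclear proteins, and Nav2 (4.82 and 3.52). Jun stood at 669 CPM in Malat1-rich and 59.3 CPM in Malat1-poor cells of WT/WT, and at 676 and 75.4 CPM in LI/LI. Ccnl1, a cyclin of splicing, and 3222401L13Rik completed the 8. All 10 immediate early genes compared were at least 1.5-fold higher in both libraries, and 9 with TMM scaling. Of 17 transcription factors 13 were, and 9 with TMM scaling, with Mef2a at log2 ratios of 1.83 and 1.67, while Spi1 was at -0.046 and -0.00037. Of 6 purine genes, P2ry12 left out, 6 were, and 2 with TMM scaling. Of 17 identity genes 5 were at least 1.5-fold higher in both libraries and 1 lower, against 30.1% and 4.22% of all genes (1 higher and 3 lower with TMM scaling). Among them Cx3cr1 stood at 3441 against 839.7 CPM in WT/WT and 2939 against 642 CPM in LI/LI.

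The lower side held the RNA of mitochondria and ribosomes. Among genes of at least 100 CPM, all 8 of lowest ratio were mitochondrially encoded, from mt-Cytb (-1.37 and -1.34) to mt-Nd1 (-1.02 and -1.13). All 11 mitochondrially encoded genes compared were at least 1.5-fold lower under both scalings. Of the 77 ribosomal protein genes compared, 65 were at least 1.5-fold lower in both libraries, and all 77 with TMM scaling. Of 13 disease-associated genes outside the criteria 5 were at least 1.5-fold lower in both libraries, and 10 with TMM scaling. These counts are to be read against all 3055 genes, of which 129 were lower (4.22%), and 564 with TMM scaling. Cst3 had log2 ratios of -0.74 and -0.72. Gene length went with this contrast too, with a median log2 ratio of -0.13 and -0.046 in the shortest of the 4 length groups and 0.81 and 0.88 in the longest. Cells of 2000 to 4000 UMIs, 1947 and 850 Malat1-rich against 294 and 79 Malat1-poor cells, were compared in CPM only. Of 3153 genes 1031 were at least 1.5-fold higher in both libraries and 201 lower. Depth still differed within that range, with medians of 3405 against 2643.5 UMIs in WT/WT and 3267 against 2652 in LI/LI.

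**Figure D4:**
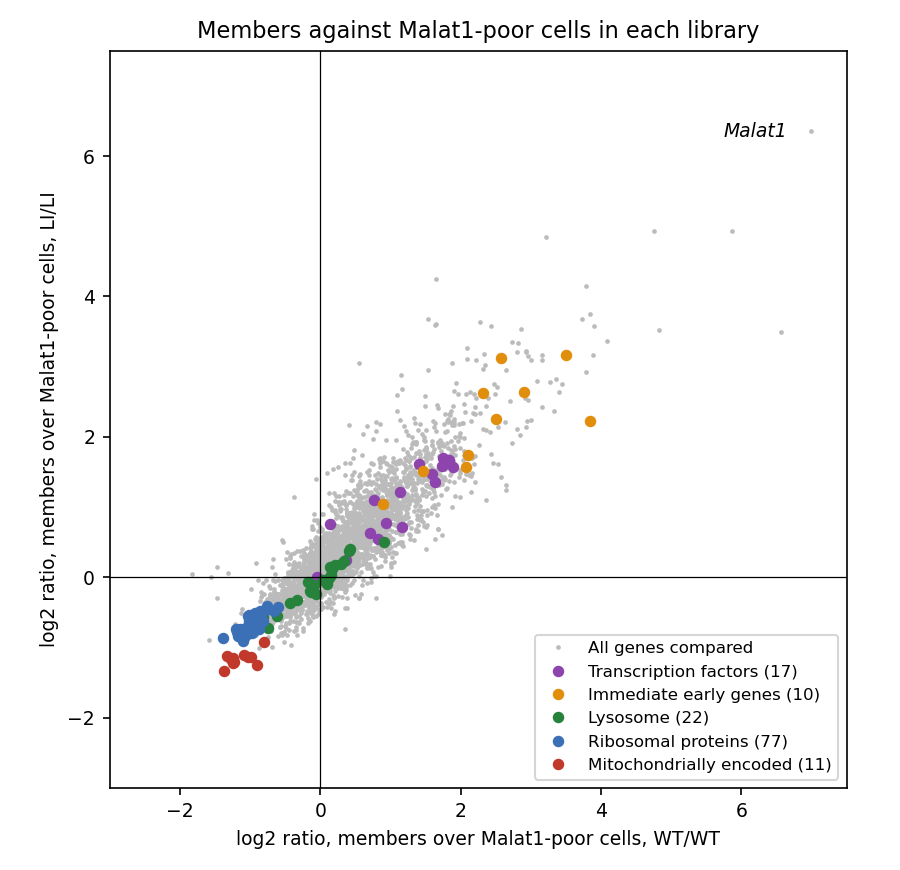
Log2 ratio of the selected cells over cells that failed through Malat1 alone, in WT/WT (x axis) and in LI/LI (y axis), in CPM and without TMM scaling. The 3055 genes drawn reached 50 CPM in either set of cells in each of both libraries. Mitochondrially encoded and ribosomal protein genes lie at the lower left, lysosomal genes near 0, most transcription factors and immediate early genes at the upper right, and Malat1, which chose the sets, at 6.99 and 6.36.

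Within the selected cells, the same groups of genes were followed along the Malat1 share. Cells were split into 4 groups of equal size by their Malat1 share in each library. From the lowest to the highest group the median mitochondrial share went from 0.951% to 0.689% in WT/WT and from 0.787% to 0.546% in LI/LI. The median share of ribosomal protein genes went from 8.32% to 6.59% and from 9.96% to 7.96%. Cst3 went from 72018 to 57228 CPM in WT/WT and from 93233 to 69631 CPM in LI/LI, while Cx3cr1 went from 3215 to 3662 CPM and from 2508 to 3250.0 CPM, and Jun from 568 to 860.0 CPM and from 507 to 814 CPM. P2ry12 stayed between 4060.4 and 4198 CPM in WT/WT and between 3180.1 and 3390 CPM in LI/LI. The median UMI count also went down, from 5314.5 to 3331 in WT/WT and from 4389 to 3245 in LI/LI. Depth thus moved with the Malat1 share, and its part in these values was not tested.

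Cells that failed through Fos alone, 279 in WT/WT and 149 in LI/LI, differed from the selected cells in few genes. They were deeper, with medians of 5022 UMIs in WT/WT and 4422 in LI/LI, against 4307 and 3850 in the selected cells. The cut on Fos is a number of UMIs and not a share, and the part of depth in this contrast was not tested. Of 3122 genes, none was at least 1.5-fold higher in the selected cells of both libraries (0%) and 61 were lower (1.95%). In WT/WT alone 2 were higher (0.0641%) and 71 lower (2.27%), and in LI/LI alone 65 were higher (2.08%) and 79 lower (2.53%). After Fos, which chose the sets, the lowest among genes of at least 100 CPM were Egr1, a zinc finger factor, at 15.3 against 194 CPM in WT/WT and 17 against 152 CPM in LI/LI, Dusp1 (log2 ratios -3.40 and -2.91), Atf3 (-2.70 and -2.54), Klf2, Ier3, Ppp1r15a and Ier2 (-2.54 and -1.89). These are immediate early and stress response genes. Genes of other kinds were also higher in the Fos-positive cells. Apoe stood at 591 against 2155 CPM in WT/WT and 499.7 against 1668 CPM in LI/LI, Cd74 at 144 against 1193 and 388 against 739 CPM, and Lyz2 at 359 against 1015 and 592 against 1671 CPM. The 7 MHC class II genes summed to 696 against 2802 CPM in WT/WT and 1152 against 1850.4 CPM in LI/LI, and the part of other cell types in this contrast was not tested. On the other side the 8 highest of at least 100 CPM were Dock8, Tjp1, Dip2b, Sall1, Slc2a5, Cd164, Fchsd2 and Cnpy2, all under 1.5-fold, with Sall1 at 334 against 259 CPM in WT/WT and 239.5 against 164 CPM in LI/LI. In LI/LI the interval of Sall1 was 0.28 to 0.82. As Fos chose both sets, these values are a description.

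The selected cells were not uniform. For 2980 genes with at least 50 CPM in both libraries, the variance of Pearson residuals among cells, which is 1 for counting noise alone, had a median of 1.10 in WT/WT and 1.09 in LI/LI, and 57 genes exceeded 2 in both. The 10 of highest rank in both were Apoe, Cd74, Ccl4, Cst3, H2-Aa, H2-Eb1, Malat1, Ccl3, Lyz2 and Ccl12. Apoe, the lipid carrier, had residual variances of 70.7 and 69.4, Cd74 of 48.1 and 49, and Ccl4 of 47.3 and 71.4. P2ry12 had 3.09 and 2.5. The 5% of cells with the most UMIs of a gene held 80.3% of all Apoe UMIs in WT/WT and 83.6% in LI/LI, 88.9% and 91.7% of Cd74, and 90.9% and 92.7% of Ccl4, against 13.3% and 11.98% of P2ry12. The median cell had 0 UMIs of Apoe and 18 and 13 of P2ry12.

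**Figure D5:**
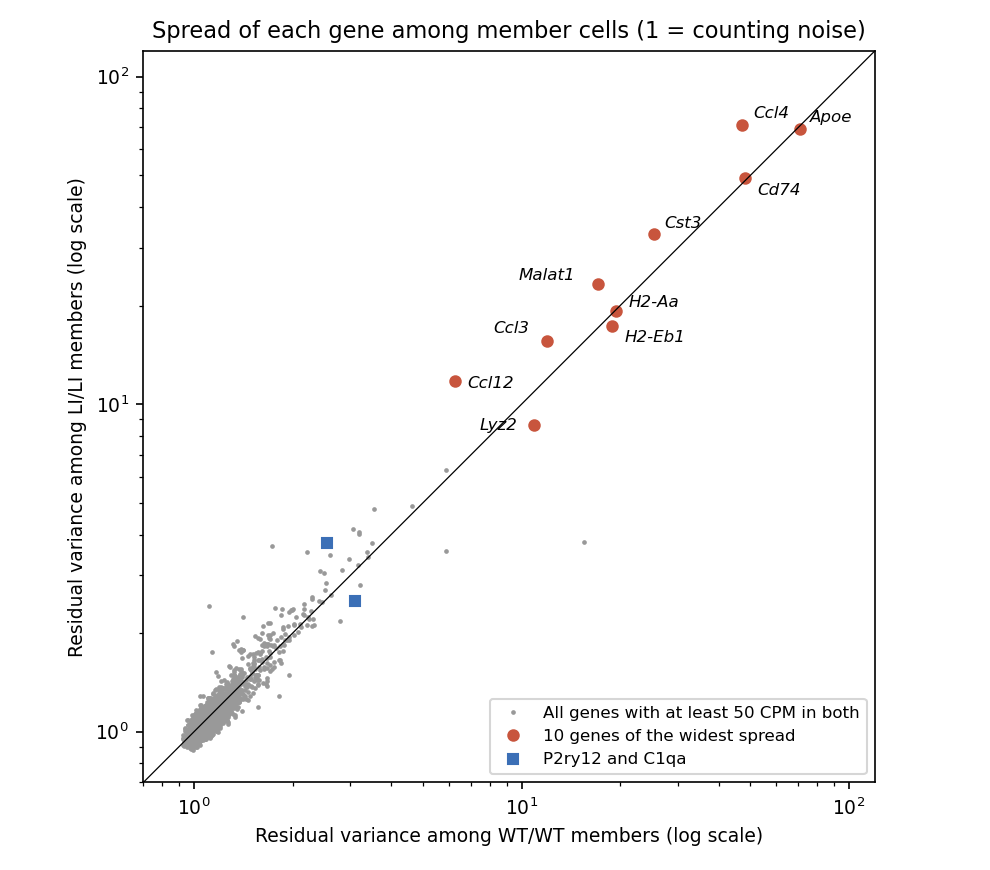
Residual variance of each gene among the selected cells of WT/WT (x axis) and of LI/LI (y axis), both on log scales, for 2980 genes, with the line of equality. A value of 1 is counting noise. The 10 genes of widest spread (red) reach 70.7 and 69.4 for Apoe, while P2ry12 and C1qa (blue) lie between 2 and 4 and most genes lie near 1.

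Cells with at least 10 UMIs of 1 of these genes, a split made after the values were seen, were compared with the other selected cells as a description. The 243 WT/WT and 53 LI/LI cells with at least 10 UMIs of Apoe (4.53% and 3.29%) held genes of border macrophages. Mrc1, the mannose receptor, stood at 457 against 9.08 CPM in WT/WT and 160.1 against 7.80 CPM in LI/LI, Pf4 at 421 against 4.70 and 338 against 0.918, and Ms4a7 at 203 against 0.958 and 76.5 against 0.459. P2ry12 stood at 2982 against 4197 CPM in WT/WT and 2154 against 3298 CPM in LI/LI. The criteria thus admitted cells in which microglia markers and border macrophage genes were found together, and whether these are single cells or doublets was not tested, since no doublets were removed. The 54 and 33 cells with at least 10 UMIs of Cd74 held H2-Aa at 2841 and 2695 CPM. In WT/WT they held border macrophage genes, Mrc1 at 432 CPM, Pf4 at 426 CPM and Ms4a7 at 359.99 CPM, above Cd79a at 122 CPM. In LI/LI they held Cd79a at 961 CPM, with Pf4 at 276 CPM, Mrc1 at 119 CPM and Ms4a7 at 72.3 CPM. The 46 and 33 cells with at least 10 UMIs of Ccl4 (0.858% and 2.05%) held Ccl3 at 1534 and 1757 CPM, against 42.3 and 61.9 in the others, Cd83 at 318 and 464 CPM against 69.9 and 68.7, and Jun at 1277 and 1419 CPM against 662 and 654. In these cells P2ry12 stood at 3591 and 2432 CPM.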

How the data were processed

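The deposited matrices hold UMI counts per gene and barcode, which the authors made with Cell Ranger 6.1.2 on mm10 (Seurat 3.0.1 is also named in their processing notes). Counts of the selected cells were summed per library and scaled to CPM without normalization by gene length. Thinning drew 1000 UMIs per cell. TMM factors came from edgeR 4.0.16, used for scaling only, as no test was possible with 1 library per genotype. Genes that reached 50 CPM in either set were compared, and a difference of at least 1.5-fold was counted. List medians used genes with at least 10 UMIs, with 0.5 added to each count. Intervals of shares, levels and ratios of single genes are exact (Clopper-Pearson or Poisson) at 95% and cover counting error. Bounds given with a list median are medians of the bounds of its genes. Intervals of median gene counts come from the ranked cells. No doublets were called or removed. Lengths came from GENCODE M21 and promoters from RefSeq. Software was R 4.3.3, Python 3.11.15, pandas 2.3.3, matplotlib 3.10.9, scipy 1.17.1 and numpy 2.4.6, and the steps were tested on simulated data.

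Genes named were the 6 markers, Disc1, Malat1, Fos, members of the lists with at least 50 CPM or said to be low, the 10 most abundant, the 10 highest and 10 lowest ratios between genotypes among genes of at least 100 CPM, the 8 highest and 8 lowest against each neighboring set by the smaller ratio of both libraries (also from 100 CPM), and the 10 of widest spread. Some genes that the rule names are not reported here. Other names were chosen after their values were seen and are marked so. The criteria, the members and the lists were chosen with earlier results of these data known, so none of them is independent support. The alternatives were other cuts for the markers, S100a8 and S100a9 and genes per cell, other scaling, fold and CPM minimums, and cells of high depth left out.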

Additional observations from a re-analysis of the deposited data

How the results depend on the processing

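With 1 library per genotype, no replicate could be left out and the spread between mice is unknown. No paired analysis was possible because each genotype is 1 pooled library and no test was run. Of 103 values of the main comparisons under an alternative, 80 stayed within the bounds given with them or moved by less than 1.5 times. The median of the identity genes, near 0, was slightly below 0 with Malat1 at 1% or more, and the balance of genes higher and lower against Malat1-poor cells turned with TMM scaling. Of 281 other values, for single genes and lists, 50 moved by more than that, the ratios of Cd74 (0.82) and Igkc (5.01) by over 1.5 times with the markers at 1% or more. Of 205 list genes with at least 50 CPM, 23 that were slightly lower in LI/LI became higher with TMM scaling, which adds 0.13 to every log2 ratio, among them Siglech, Csf1r, P2ry6, Irf8 and Stab1. The share of cells selected was 57.6% in WT/WT and 13.7% in LI/LI with the markers at 1% or more, 79.7% and 27.9% with at least 1000 genes, 73.2% in WT/WT without the 5% of deepest cells, and 15.9% in LI/LI with S100a8 and S100a9 under 0.1%. Genes at 1000 UMIs in WT/WT were 667 with the markers at 1% or more. Genes higher in LI/LI numbered 87 with TMM scaling, 18 at 2-fold, 125 with a minimum of 10 CPM and 14 among genes not lower than in S100a8/S100a9-high cells. Genes lower in LI/LI numbered 209 with TMM scaling, 27 at 2-fold and 1269 with a minimum of 10 CPM. Genes higher in Malat1-rich than in Malat1-poor cells numbered 606 with the markers at 1% or more, 420 with TMM scaling, 476 at 2-fold and 2813 with a minimum of 10 CPM. Genes lower numbered 564 with TMM scaling, 8 at 2-fold and 201 among cells of 2000 to 4000 UMIs. The median log2 ratio between genotypes with TMM scaling was 0.14 for identity genes and 0.25 for ARP2/3. Apart from counts set by the threshold, minimum or number of cells itself, the cause was not tested. The restriction to genes not lower than in S100a8/S100a9-high cells, the depth range and the removal of cells with at least 10 UMIs of Apoe, Cd74 or Ccl4 were chosen after seeing the data.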
